A study of Mus musculus with 4 samples.

Results

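The genes described here are 9 genes of the red blood cell lineage, namely the regulators Klf1, Gata1, Tal1 and Nfe2, the heme synthesis gene Alas2, the red cell membrane gene Slc4a1, the receptors Epor and Tfrc, and Ahsp. Their rows were found by gene symbol, and no measured value enters that rule, but the members were chosen with earlier results of these data known. Of these 9 genes, 8 had a row among the 24771 features of the expression table, and Ahsp was not analysed here. The study cultured PSC-derived salivary gland (SG) placodes and set them beside embryonic mouse submandibular glands (SMGs). RNA-seq was available for 2 placode samples and 2 SMG samples, and each value is an FPKM, a count of fragments that is scaled to the length of the transcript and to the size of the library.

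The placodes were aggregates of 129w2, a mouse embryonic stem cell line, harvested on day 10. Seeding was at 3000 cells per well, with Matrigel at 2% in the medium. On day 3 the aggregates received BMP4 (2 ng/ml), on day 4 retinoic acid (1 μM) together with bFGF (25 ng/ml), and from day 6 onwards FGF10 (200 ng/ml). The SMGs came from embryos at E12.5, with no treatment in culture, and neither their strain nor how they were dissected is given in the sources used here. The placodes are thus 1 cell line grown without an embryo, and the SMGs are tissue taken from embryos. Nothing says whether the 2 samples of a group came from separate cultures or embryos, so p-values measure the spread between these samples alone.

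Red blood cells are made under a small set of transcription factors. Gata1 and Tal1 bind DNA in shared complexes, Klf1 switches on the adult β-globin gene and many late red cell genes, and Nfe2 is the tissue-restricted subunit of a dimer that acts on globin genes. Heme is built from glycine and succinyl-CoA, and Alas2 encodes the erythroid form of the enzyme that catalyses the first step, while Alas1 encodes the form used in other cells. Slc4a1 encodes band 3, the anion exchanger that anchors the red cell membrane to its skeleton. Epor encodes the erythropoietin receptor, and Tfrc encodes transferrin receptor 1, which brings iron into erythroblasts and into most dividing cells. E12.5 is a time at which red cells from the yolk sac circulate and the fetal liver has begun to make its own.

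Several iron genes carry an iron-responsive element (IRE), a short RNA hairpin bound by iron regulatory proteins. Sites of this kind in the 5′ UTR block translation when iron is low, and sites in the 3′ UTR protect the Tfrc transcript from decay. The sequences are shown because Alas2 and Tfrc, the members furthest apart between the groups on the log2(FPKM + 1) scale in each direction, both carry such a site. They were read 5′ to 3′ from the GENCODE M21 transcripts (GRCm38), written as DNA, with the hairpin loop in capitals. The Alas2 site lies in its 5′ UTR on the plus strand of chrX:150547458-150552149, a span that includes an intron. The Tfrc sites lie in its 3′ UTR on the plus strand, at chr16:32631219-32631247, chr16:32631598-32631626, chr16:32631663-32631691 and chr16:32631710-32631738. The ferritin sites lie in the 5′ UTRs, for Fth1 at chr19:9982732-9982760 on the plus strand and for Ftl1 at chr7:45459779-45459807 on the minus strand.
Alas2 5′ UTR: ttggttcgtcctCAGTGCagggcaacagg
Tfrc 3′ UTR, site A: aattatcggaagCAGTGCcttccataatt
Tfrc 3′ UTR, site B: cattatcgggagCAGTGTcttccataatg
Tfrc 3′ UTR, site C: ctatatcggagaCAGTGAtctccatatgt
Tfrc 3′ UTR, site D: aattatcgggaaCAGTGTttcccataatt
Fth1 5′ UTR: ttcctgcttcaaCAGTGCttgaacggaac
Ftl1 5′ UTR: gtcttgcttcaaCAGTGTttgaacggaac

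The pattern searched was a C, then 5 bases, the loop CAGTGN, and 5 bases that pair with the 5 before the loop, with G to T pairs allowed. Of 21901 protein-coding genes, 31 held it in a 5′ UTR (0.142%) and 129 in a 3′ UTR (0.589%). A match is a description of the letters. Among the other genes of iron uptake, storage and export, Slc40a1, the iron exporter ferroportin, also held 1 match in its 5′ UTR. Matches were not limited to iron genes: Egfl7, listed below as an endothelial marker, held 2 in its 5′ UTR.

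The members differed between the groups in both directions. Tal1, Alas2 and Slc4a1 were lower in the placodes, and Tfrc and Epor were higher, by limma's test on log2(FPKM + 1) at an adjusted p below 0.05. Tests covered 13193 features, those whose FPKM averaged 1 or more across all samples. Klf1, Gata1 and Nfe2 lay below that level and were not tested. Tal1, Alas2 and Slc4a1, the members called lower, each averaged under 1 FPKM in the placodes and passed this minimum through the SMGs alone. Of all tested features, 40.4% were called lower in the placodes and 35.7% higher, so the 3 lower and 2 higher members of 5 tested were near the share of calls over the whole table. Because the scale adds 1 to each FPKM, differences of low genes are understated.

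**Figure D1:**
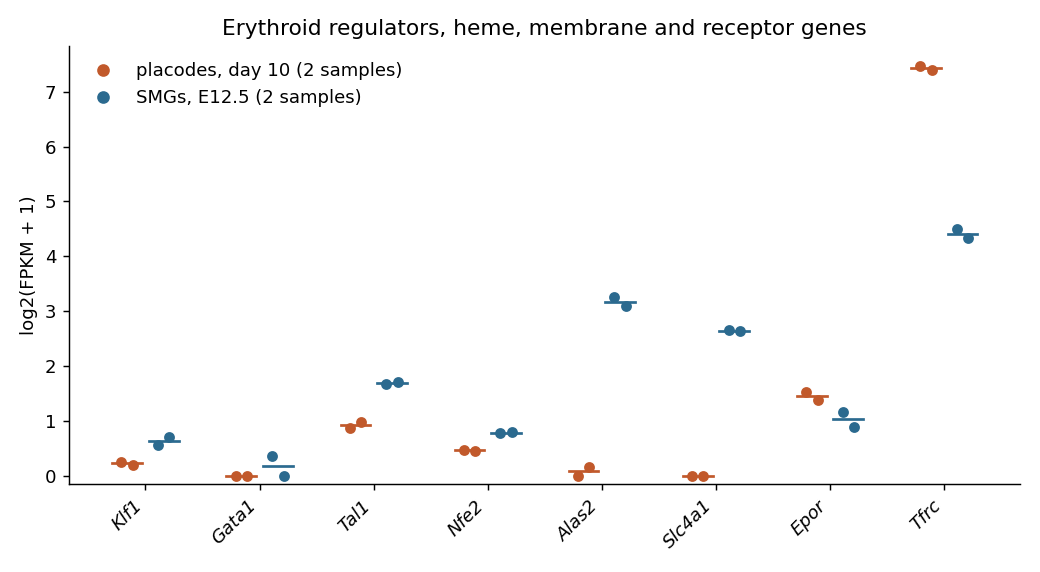
Expression of the 8 erythroid members with a row in the table, as log2(FPKM + 1) on the vertical axis, with 1 point per sample and a line at the mean of each group. Alas2 and Slc4a1 sit at or close to 0 in both placode samples and between 5.22 and 8.54 FPKM in the SMGs, while Tfrc is above 167 FPKM in the placodes and at most 21.5 FPKM in the SMGs.

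Among the regulators, Klf1 (chromosome 8, 84901928 to 84905291, plus strand, GRCm38) had FPKM values of 0.198 and 0.144 in the placodes and 0.480 and 0.637 in the SMGs. The SMGs were above the placodes in every sample, with a ratio of group means of 3.27. Gata1 (chromosome X, 7959260 to 7978071, minus strand), the factor without which red cell precursors die, was listed at 0 in SMG sample 2 and in both placode samples, while SMG sample 1 had 0.279 FPKM. The groups overlapped for Gata1, and a level resting on 1 sample gives no fold.

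Tal1 (chromosome 4, 115056426 to 115071755, plus strand) had FPKM values of 0.836 and 0.980 in the placodes and 2.20 and 2.26 in the SMGs. The groups did not overlap, and Tal1 was lower in the placodes, with a log2 difference of -0.76 (standard error 0.11, adjusted p = 9.53e-04 by limma), though it entered the test through the SMGs alone. Nfe2 (chromosome 15, 103248212 to 103258403, minus strand) had FPKM values of 0.395 and 0.366 in the placodes and 0.719 and 0.734 in the SMGs. Both placode samples were again below both SMG samples, with a ratio of group means of 1.91.

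When the minimum of mean FPKM was dropped and 20464 features were tested, Klf1 and Nfe2 were called lower in the placodes. The difference was -0.41 (standard error 0.08, adjusted p = 0.0145 by limma) for Klf1 and -0.32 (standard error 0.07, adjusted p = 0.0206 by limma) for Nfe2. Gata1 did not pass in that fit (adjusted p = 0.307 by limma). Over the 20464 features, 31.1% were called lower in the placodes. The 4 regulators were all under 2.3 FPKM in every sample, and none of their values in the placodes reached 1 FPKM.

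Tal1 is also used outside blood, together with Gata2 and Gata3 in V2b interneurons of the spinal cord. The 8 transcription factors listed for V2 interneurons, Tal1 included, summed to 8.11 and 8.99 FPKM in the placodes and to 4.90 and 4.92 in the SMGs. Gata2, the most abundant of them in the placodes, was higher there, while Gata3 had 0.713 and 1.20 FPKM in the placodes against 1.43 and 1.37 and did not pass (adjusted p = 0.106 by limma). Tal1 and Gata3 thus had higher values in the SMGs, against the direction of the sum. The part of these cells in the Tal1 values was not tested.

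Alas2 (chromosome X, 150547375 to 150570638, plus strand) was listed at 0 and had an FPKM of 0.124 in the placodes, against 8.54 and 7.49 in the SMGs. The values of the groups lay far apart, and limma gave a difference of -3.09 (standard error 0.12, adjusted p = 3.13e-06). No ratio is given, since a placode sample was listed at 0. Alas2 shares exon bases with Apex2 and Mir3620, both on the opposite strand, and whether reads were counted by strand is not given in the sources used here. Apex2 had FPKM values of 4.01 and 3.48 in the placodes and 3.75 and 4.15 in the SMGs, a log2 difference of -0.06 (adjusted p = 0.623 by limma).

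Slc4a1 (chromosome 11, 102348824 to 102366203, minus strand) was listed at 0 in the placodes, in both samples, and reached FPKM values of 5.31 and 5.22 in the SMGs. It passed limma's test (adjusted p = 3.21e-06), and its ratio between the 2 SMG samples was 1.02. In bulk RNA a lower level can come from fewer cells of a type or from less RNA per cell, and these cannot be told apart here. This holds for each member.

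Tfrc (chromosome 16, 32608920 to 32632794, plus strand) stood apart from the other members. It had FPKM values of 175 and 167 in the placodes and 21.5 and 19.1 in the SMGs. The log2 difference was 3.02 in favour of the placodes (standard error 0.07, adjusted p = 4.36e-07 by limma), a ratio of group means of 8.43. Ordered by mean FPKM over 24771 features, Tfrc was at position 256 in the placodes and 3909 in the SMGs. Ordered by the log2 difference over the 13193 tested features, with the highest first, it was at position 333.

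Epor (chromosome 9, 21958897 to 21963506, minus strand) had FPKM values of 1.89 and 1.60 in the placodes and 1.25 and 0.850 in the SMGs. The placode samples were above the SMG samples, and the 2 SMG samples differed from each other by a ratio of 1.47. The difference of 0.42 (standard error 0.14) passed limma's test at an adjusted p of 0.0326. This call was lost when placode sample 1 (adjusted p = 0.165), placode sample 2 (adjusted p = 0.0794) or SMG sample 2 (adjusted p = 0.116) was left out of the limma fit, and with no minimum of mean FPKM (adjusted p = 0.0630).

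In the SMGs the order of the members by FPKM, from the highest, was Tfrc, Alas2, Slc4a1, Tal1, Epor, Nfe2, Klf1 and Gata1. Their means were 20.3 ± 1.73 (SD, n = 2) for Tfrc, 8.02 ± 0.742 (SD, n = 2) for Alas2, 5.26 ± 0.0595 (SD, n = 2) for Slc4a1 and 2.23 ± 0.0402 (SD, n = 2) for Tal1. Below these, Epor was at 1.05 ± 0.284 (SD, n = 2), Nfe2 at 0.726 ± 0.0110 (SD, n = 2) and Klf1 at 0.559 ± 0.111 (SD, n = 2). The samples of neighbours in this order did not overlap, and the closest were Nfe2 and Klf1, with 0.719 as the lower value of Nfe2 and 0.637 as the higher value of Klf1. In the placodes the order was Tfrc, Epor, Tal1, Nfe2, Klf1 and Alas2, followed by Gata1 and Slc4a1, which were both listed at 0. Epor was thus above Tal1 in the placodes and below it in the SMGs, at 1.74 ± 0.205 (SD, n = 2) and 0.908 ± 0.102 (SD, n = 2) in the placodes.

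Of the 8 members, 5 had both placode values under both SMG values and 2 had them above. Groups of 2 did not overlap for 77.2% of the 20464 features above 0 in at least 1 sample. The smallest p that exact permutation of 2 against 2 samples allows is 0.333, so the calls rest on the spread that limma estimated over all tested features.

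Upstream sequences are given for Tal1 and Alas2, which were both lower in the placodes. They come from the RefSeq promoter entries (GRCm38.p6) and end before the first base that GENCODE M21 annotates as exon. The Tal1 sequence is the plus strand of chr4:115056176-115056425 and the Alas2 sequence the plus strand of chrX:150547167-150547374. Capitals mark a match to the GATA factor motif AGATAA or TGATAA on either strand.
Tal1 upstream: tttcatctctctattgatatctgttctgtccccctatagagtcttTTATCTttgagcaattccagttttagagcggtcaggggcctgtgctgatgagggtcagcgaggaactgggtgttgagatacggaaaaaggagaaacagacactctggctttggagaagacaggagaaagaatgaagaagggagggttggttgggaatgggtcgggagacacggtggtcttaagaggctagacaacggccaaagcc
Alas2 upstream: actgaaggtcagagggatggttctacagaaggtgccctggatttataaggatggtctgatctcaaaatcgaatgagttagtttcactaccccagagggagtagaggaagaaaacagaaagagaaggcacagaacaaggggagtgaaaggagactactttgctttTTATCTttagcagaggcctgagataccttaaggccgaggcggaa

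In the 250 bases before the start site, the GATA motif was found in the entries of Klf1, Alas2 and Epor. For Tal1 it was found in 1 of 2 entries, the one printed. The motif CCACCC, which Klf1 can bind, was found in those of Gata1, Alas2 and Epor, and in 1 of 2 entries of Tfrc. The motif TGACTCA, which Nfe2 dimers can bind, was found in none of them. Of 32851 mouse promoters, 16.6% held the GATA motif, 28.1% held CCACCC and 4.46% held TGACTCA on either strand. In Alas2 the 3 CCACCC matches overlap each other and lie in bases that GENCODE counts as exon, which are not shown. The Tfrc matches also lie past the first base that GENCODE annotates as exon. Slc4a1 and Nfe2 had no entry.

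The members were next set beside the other genes of the pathway. Of 66 genes in the lists for transcription, heme, iron, membrane and erythropoietin signalling, 52 were tested, 30 were lower in the placodes, 15 were higher and 7 did not pass, where 40.4% of all tested features were lower and 35.7% higher. Their median difference was -0.43, against -0.05 over all tested features. Of the genes called lower, Myb, Steap3, Trf, Aqp1, Stat5a, Lyn and Ptpn6 averaged under 1 FPKM in the placodes. These passed the minimum through the SMGs alone, while no gene called higher averaged under 1 FPKM in the SMGs. The surplus of lower calls and the median thus rest in part on that minimum. Where a list below gave 5 or fewer genes with a call, they were named after their values were seen.

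**Figure D2:**
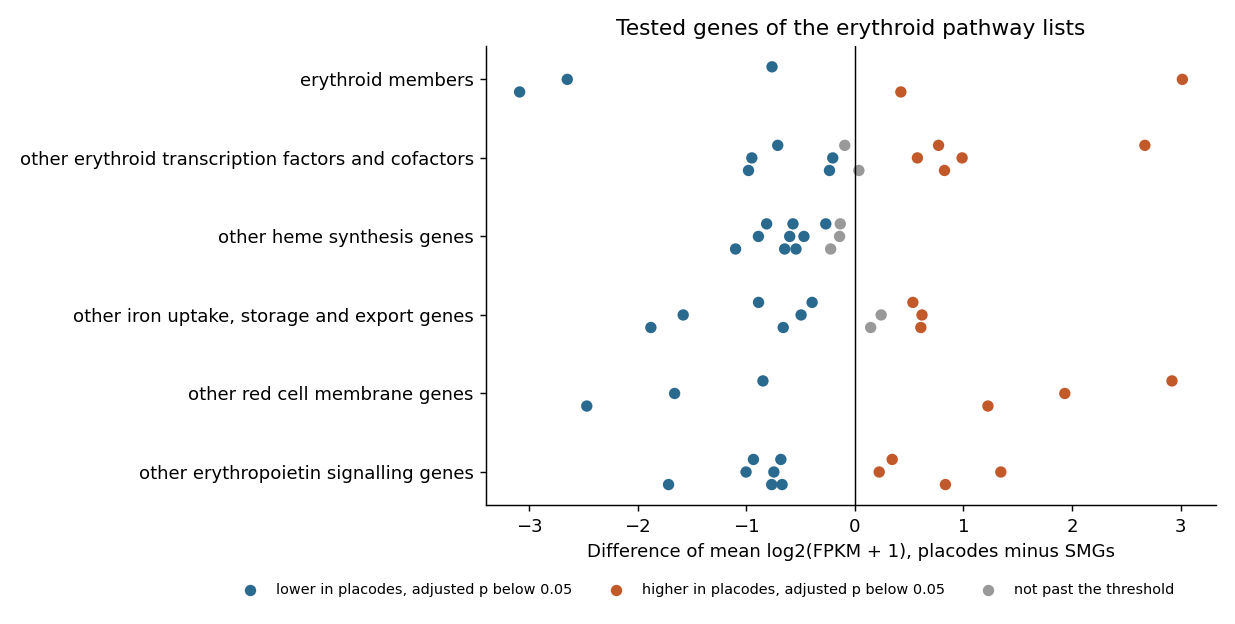
Difference of mean log2(FPKM + 1), placodes minus SMGs, on the horizontal axis for each tested gene (1 point each) of the members and of the 5 pathway lists, coloured by whether limma called it lower, higher or neither. The heme synthesis genes lie between -1.10 and -0.13, while the other lists reach both sides of 0.

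Heme synthesis genes were lower in the placodes for 9 of 12, with none called higher and a median difference of -0.56, beside 40.4% called lower and 35.7% called higher over all tested features. For all 12, no placode value reached the lower SMG value, and groups did not overlap for 77.2% of all features. Every difference tested was also negative under each of 14 other settings, though with a minimum of 5 FPKM only 11 genes were tested. Since the groups did not overlap for these genes, only a change of scaling between samples could have changed a sign. In the other settings that kept all samples, 8 to 10 genes were called lower. Alas1, the form of the first enzyme found in all tissues, had FPKM values of 9.49 and 9.96 in the placodes and 12.1 and 11.7 in the SMGs, a difference of -0.27 (adjusted p = 0.0133 by limma). Alas1 was thus present in both groups, while its erythroid counterpart Alas2 was at 8.02 ± 0.742 (SD, n = 2) in the SMGs and listed at 0 or at 0.124 in the placodes.

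The enzymes described next follow in the pathway and differed by less than Alas2. Alad, which joins the first intermediates into a ring, was lower by -0.81 (adjusted p = 5.16e-05 by limma), with FPKM values of 29.6 and 27.0 in the placodes and 49.2 and 51.6 in the SMGs. Uros, which closes the large ring, differed by -0.14 and did not pass (adjusted p = 0.232 by limma), at 7.25 and 8.65 FPKM against 8.85 and 8.82. Urod was lower by -0.89 (adjusted p = 1.22e-04 by limma) and Cpox by -0.54 (adjusted p = 0.0272 by limma), and these trim the side chains of the ring.

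Ppox, which acts just before the last step, was the lowest of the list, at 6.10 and 6.61 FPKM in the placodes and 15.4 and 14.1 in the SMGs, a difference of -1.10 (adjusted p = 4.63e-05 by limma). Fech, which inserts the iron atom, was lower by -0.65 (adjusted p = 3.70e-04 by limma). Among the mitochondrial carriers, Slc25a38, which carries glycine, was lower by -0.47 (adjusted p = 9.30e-04 by limma) and Slc25a37, the iron importer mitoferrin 1, by -0.57 (adjusted p = 0.00218 by limma). Abcb10 at -0.22 (adjusted p = 0.0654 by limma) and Tmem14c at -0.13 (adjusted p = 0.122 by limma) did not pass.

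**Figure D3:**
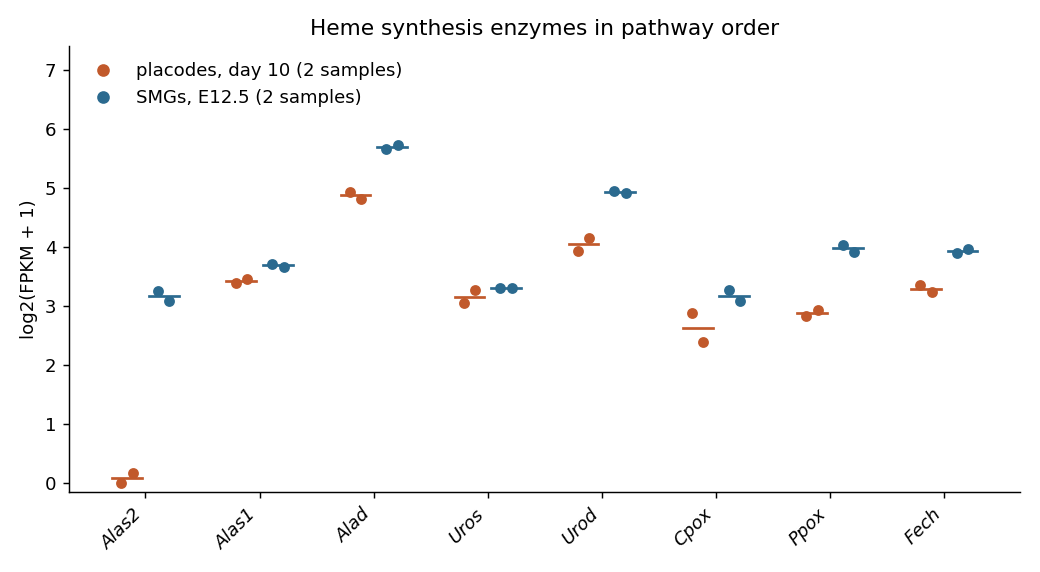
Levels of 8 heme synthesis enzymes in pathway order, as log2(FPKM + 1) on the vertical axis, with 1 point per sample and a line at each group mean. The erythroid enzyme Alas2 shows the widest gap, 0 and 0.124 FPKM in the placodes against 8.54 and 7.49 in the SMGs, while Uros lies between 7.25 and 8.85 FPKM in all 4 samples.

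Iron genes differed in both directions. Of 12 genes in this list, 11 were tested, 6 were lower in the placodes, 3 were higher and 2 did not pass, Hmox1 (adjusted p = 0.105 by limma) and Flvcr1 (adjusted p = 0.256 by limma). The median difference was -0.39. Over all tested features, 40.4% were called lower and 35.7% higher, with a median of -0.05. Trf, which encodes transferrin, the ligand of Tfrc, was the lowest, with FPKM values of 0.0599 and 0.656 in the placodes and 3.66 and 4.08 in the SMGs, a difference of -1.88 (adjusted p = 3.24e-04 by limma). The ligand was thus lower in the samples in which the receptor was higher, though the 2 placode values of Trf were low and lay far apart. Trf and Steap3, also called lower, passed the minimum through the SMGs alone. The count of lower genes and the median of this list thus rest in part on that minimum.

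The ferritin chains, which store iron, differed in opposite directions. Ftl1, the light chain, had FPKM values of 1116 and 1057 in the placodes and 696 and 718 in the SMGs, higher by 0.62 (adjusted p = 3.18e-04 by limma). Fth1, the heavy chain, had 250.8 and 249.1 against 467 and 459, lower by -0.89 (adjusted p = 1.55e-05 by limma). Both carry the 5′ UTR hairpin printed above. The other genes higher in the placodes were Slc11a2, an importer of ferrous iron, at 0.61 (adjusted p = 6.82e-04 by limma), and Ireb2, which encodes an iron regulatory protein, at 0.53 (adjusted p = 1.27e-04 by limma). Tfr2, a second transferrin receptor, was below the minimum for the test, at 0.617 and 0.748 FPKM in the placodes against 0.0867 and 0.0505.

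Beside Slc4a1, 17 other genes of the red cell membrane and its skeleton were listed. Only 6 of them had a mean FPKM of at least 1, 3 lower and 3 higher in the placodes, and 11 were not tested. The shares over all tested features were 40.4% lower and 35.7% higher. Gypc, a glycophorin made in many tissues, was the lowest, at 3.27 and 3.20 FPKM in the placodes and 21.5 and 23.3 in the SMGs, a difference of -2.47 (adjusted p = 1.23e-06 by limma). Aqp1, a water channel, was lower by -1.66 (adjusted p = 1.17e-04 by limma) and Ank1, the ankyrin that binds band 3, by -0.85 (adjusted p = 0.00162 by limma). Aqp1 passed the minimum through the SMGs alone.

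The genes higher in the placodes encode proteins of the membrane skeleton that neurons also use. Add2, β-adducin, had FPKM values of 33.2 and 32.4 in the placodes and 3.43 and 3.50 in the SMGs, higher by 2.92 (adjusted p = 4.37e-07 by limma). Epb41, protein 4.1, had 95.6 and 97.6 against 39.98 and 41.4, higher by 1.23 (adjusted p = 2.81e-06 by limma). Dmtn, dematin, had 5.19 and 9.14 against 1.05 and 1.10, higher by 1.93 (adjusted p = 3.51e-04 by limma). Neural ectoderm markers summed to 768 and 800 FPKM in the placodes and to 100.2 and 92.6 in the SMGs, with the neuronal tubulin Tubb3 the highest, and their part in these differences was not tested.

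Of 14 other erythroid transcription factors and cofactors, 12 were tested, 5 were lower in the placodes, 5 were higher, and Lmo2 and Cbfa2t3 did not pass. The median difference was -0.03, beside 40.4% called lower and 35.7% called higher over all tested features. Lower were Runx1 at -0.98 (adjusted p = 2.44e-04 by limma), Myb at -0.95 (adjusted p = 5.57e-04 by limma), Tcf3, Ldb1 and Mafg. Myb passed the minimum through the SMGs alone. Runx1 marks the first blood stem cells and had FPKM values of 1.43 and 1.63 in the placodes against 4.11 and 3.84 in the SMGs. Tcf3 and Ldb1, the DNA-binding partner and the bridging cofactor of Tal1, were the most abundant of the list, at 144 ± 0.641 (SD, n = 2) and 101 ± 2.86 (SD, n = 2) FPKM in the SMGs and 87.4 ± 0.0848 (SD, n = 2) and 87.3 ± 1.27 (SD, n = 2) in the placodes.

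Higher in the placodes were Sox6, Gata2, Bcl11a, Zfpm1 and Mafk. Sox6, which acts in late red cell maturation and in neural and cartilage development, had FPKM values of 14.2 and 14.7 in the placodes and 1.49 and 1.37 in the SMGs, a difference of 2.67 (adjusted p = 1.51e-06 by limma). Gata2, the relative of Gata1 used by earlier blood progenitors and by neurons, had 2.96 and 3.15 against 1.03 and 1.06, higher by 0.99 (adjusted p = 2.19e-04 by limma). Below the minimum for the test, Lyl1, a relative of Tal1, was listed at 0 in the placodes and at 1.54 and 1.96 FPKM in the SMGs, and Gfi1b was at 0.164 in SMG sample 1 and listed at 0 elsewhere.

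All 11 other genes of erythropoietin signalling were tested, 7 were lower in the placodes and 4 higher, with a median difference of -0.68. Among all tested features, 40.4% were lower and 35.7% higher, with a median of -0.05. Lyn, Stat5a and Ptpn6, all called lower, averaged under 1 FPKM in the placodes and passed the minimum through the SMGs alone. The count of lower genes and the median of this list thus rest in part on that minimum. Lyn, a kinase bound to Epor, was the lowest, at 0.263 and 0.334 FPKM in the placodes and 3.29 and 3.23 in the SMGs, a difference of -1.71 (adjusted p = 2.24e-05 by limma). Stat5b, a signal transducer downstream of the receptor, had 9.60 and 8.68 against 15.7 and 16.2, lower by -0.75 (adjusted p = 1.72e-04 by limma). Kit, the receptor for stem cell factor, was the highest at 1.34 (adjusted p = 1.98e-05 by limma), with 14.3 and 13.1 against 4.61 and 4.93. Bcl2l1, a survival gene, was higher by 0.83 (adjusted p = 2.53e-05 by limma), Pim1 by 0.34 (adjusted p = 0.0294 by limma) and Jak2, the kinase that Epor acts through, by 0.22 (adjusted p = 0.0198 by limma).

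The levels of the members can be read beside those of hemoglobin and of other cell types. The 7 globin genes summed to 0 and 0.0586 FPKM in the placodes and to 3053 and 3048 in the SMGs, which was 0.793% and 0.815% of all FPKM in the SMGs. The embryonic gene Hbb-y was the highest, and reads can be shared among these paralogs. The 2 SMG samples had nearly equal globin sums, while the ratio of sample 1 to sample 2 was 0.754 for Klf1, 0.975 for Tal1, 0.979 for Nfe2, 1.02 for Slc4a1, 1.13 for Tfrc, 1.14 for Alas2 and 1.47 for Epor. Single globin genes ran from 0.811 to 1.17 in this ratio.

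Leukocyte markers had sums of 2.45 and 3.02 FPKM in the placodes and 23.8 and 20.7 in the SMGs, and C1qa, a macrophage gene, was the highest of them in the SMGs at 5.49 and 5.09. Megakaryocyte and platelet markers summed to 0.854 and 0.856 against 6.25 and 6.89, with Pf4 at 3.96 and 2.97 in the SMGs and listed at 0 in the placodes. These cells use Gata1, Tal1 and Nfe2 as red cells do, and their part in those values was not tested. Mast cell markers, the other lineage in which Gata1 acts, summed to at most 0.773 FPKM in any sample, with Cpa3 the highest at 0.502 in SMG sample 2, and Fcer1a and Tpsb2 were listed at 0 in all 4 samples.

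Endothelial markers had sums of 17.2 and 15.7 FPKM in the placodes and 164 and 175 in the SMGs. Egfl7, the most abundant of them in the SMGs, was at 34.6 and 37.1 there and at 5.04 and 3.99 in the placodes. Markers of salivary epithelium summed to 3.40 and 4.30 FPKM in the placodes and to 556 and 540 in the SMGs. Krt5, Krt14 and Krt15 of that list were at 0 in both placode samples, and Pitx1, an oral ectoderm factor, was at 0.539 and 0.429 there. Cdh1 had 1.11 and 1.18 FPKM in the placodes and 28.2 and 24.7 in the SMGs. Epcam had 1.75 and 2.69 against 87.2 and 78.8. The RNA of these markers alone thus did not bear out the salivary label of the placodes. The list was chosen with earlier results of these data known, so it does not test that label. Sox9 and Krt19 were not in this list. From RNA-seq the paper reports that the placodes resembled E12.5 SMGs in the expression of developmental and SMG genes. From key genes of skin, neural ectoderm, mesoderm and endoderm, it reports that cells of other tissues were not generated. Those genes may differ from the markers listed here. The neural ectoderm markers listed here summed to 768 and 800 FPKM in the placodes and to 100.2 and 92.6 in the SMGs. By qPCR the paper reports more Krt5, Krt14, Krt19 and Sox9 after FGF10. It also reports staining for Sox9, E-cadherin, Krt5 and Krt19 on day 10, and ducts after transplantation. The groups thus differed in the marker RNA of several cell types at once. The erythroid values cannot be told apart from a difference in makeup, which was not measured.

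**Figure D4:**
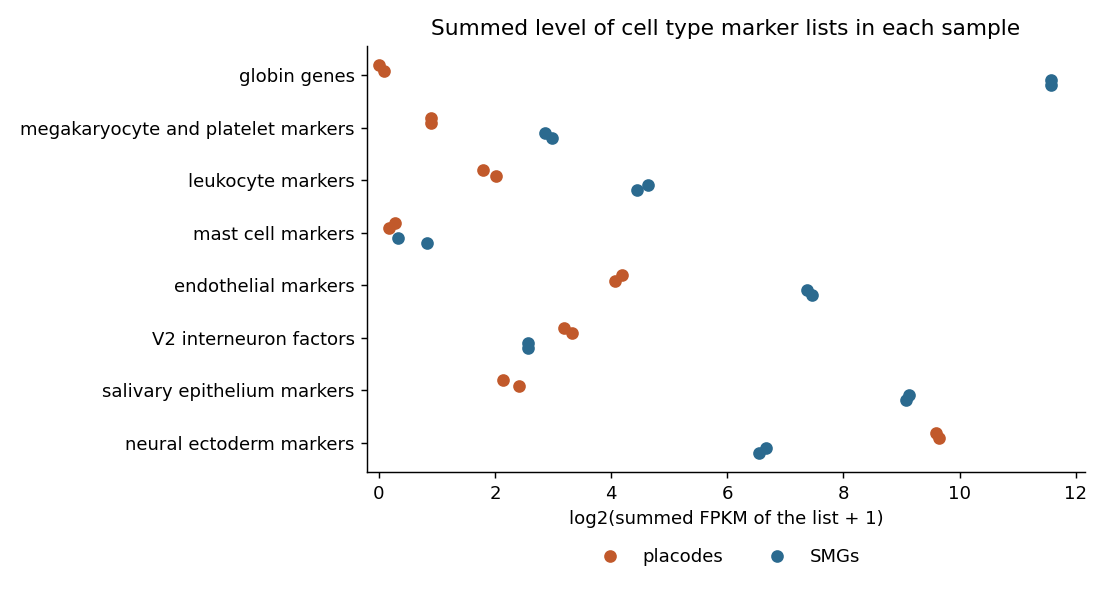
Summed level of each cell type marker list in each sample, as log2(summed FPKM + 1) on the horizontal axis, with 1 point per sample. Globin genes show the widest gap, from at most 0.0586 FPKM in the placodes to 3048 and 3053 in the SMGs, and neural ectoderm and V2 interneuron factors are the lists that are higher in the placodes.

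For the members with a mean FPKM of at least 1, the gene with the most similar values over the 4 samples was found by Euclidean distance in log2(FPKM + 1). It was C1qa for Slc4a1 (distance 0.05), Tep1 for Tal1 (distance 0.09), 1110032F04Rik for Epor (distance 0.13), Gja5 for Alas2 (distance 0.16) and Nefl for Tfrc (distance 0.22). Gja5, a gap junction gene of arteries and heart, had FPKM values of 0.0199 and 0.0480 in the placodes and 7.87 and 7.93 in the SMGs. Nefl, the light neurofilament chain, had 176 and 167 against 19.1 and 17.1. With 4 samples in 2 groups, likeness of this kind reflects little more than the level in each group.

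Over the whole table, FPKM summed to between 361963 and 384773 per sample, and 12636 to 12807 features had at least 1 FPKM. Mitochondrial transcripts took 5.88% to 5.93% of FPKM in the placodes and 8.07% to 10.7% in the SMGs. The values keep no trace of whole reads, so sequencing depth is unknown for all 4 samples, and a gene listed at 0 is not shown to be absent.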

How the data were processed

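Total RNA of 2 placode and 2 SMG samples was sequenced in paired-end mode (Illumina). The authors aligned the reads with HISAT2, and they deposited gene expression as FPKM. The submitters' processing notes name the builds GRCm38 and GRCh38, and their roles, the annotation, the version of HISAT2, the strandedness and the FPKM software are not given in the sources used here. Groups were taken from the sample labels.

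FPKM was transformed as log2(FPKM + 1). Linear models with the group as sole term were fitted by limma 3.58.1 (lmFit and a trended eBayes, R 4.3.3) to features averaging 1 FPKM or more. Two-sided p-values were adjusted over 13193 features (Benjamini-Hochberg), and a call is an adjusted p below 0.05. The procedure was tested on simulated data. Figures were drawn with matplotlib 3.10.9.

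The members and gene lists were chosen with earlier results of these data known. Named genes are the members, the genes of the heme list, the lowest, the highest and the 2 most abundant tested genes of each other pathway list, the most abundant gene of each marker list, and the nearest gene to each member. Other genes named were chosen after their values were seen. Coordinates, shared exon bases and hairpin sites were read from GENCODE M21 (GRCm38), and promoters from RefSeq (GRCm38.p6). Low values showed no steps of whole reads: over 805 low genes, the commonest ratio between the SMG samples held 1.24%. The alternatives were a pseudocount of 0.1 or 0.001, 4 other scalings (equal sums as in TPM, median ratio, quantile, and equal sums without mitochondrial, ribosomal protein and globin genes), no minimum or a minimum of 5 FPKM, a replicate block, eBayes without trend, and each sample left out in turn. A few listed genes are counted but not reported here by name. Read-level steps were not repeated.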

Additional observations from a re-analysis of the deposited data

How the results depend on the processing

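Against 5 members called, 4 to 6 were called under 13 of 14 alternatives, with 6 when no minimum was set, where Klf1 and Nfe2 entered and Epor was lost. With a minimum of 5 FPKM 1 was called, Tfrc, since the other members lie below that level. Of 66 such values of the 5 tested members, 61 kept their side of the threshold and none changed direction. The groups did not overlap for these members, so only the 4 other scalings could have changed a direction. The 5 values that crossed the threshold were all of Epor. Its limma adjusted p-values were 0.0527 at a pseudocount of 0.001 and 0.0630 with no minimum. The rest came from leaving out placode sample 1, placode sample 2 or SMG sample 2, with log2 differences of 0.35, 0.50 and 0.28. The cause was not tested. Leaving out each sample in turn gave 4 to 5 members and 40 to 44 pathway genes, against 45 in all samples and 31 to 52 over the alternatives. Calls over all features were 10049, with a range of 7460 to 11894. Replicate numbers are shared between the groups, and the correlation of same-numbered deviations was -0.03. With 2 samples per group, this value cannot show whether same-numbered samples share more than a number. With the replicate number as a block, 5 members, 45 pathway genes and 10043 features were called. With a left-out sample, the lone sample of a group is assumed to vary like the other group. The log2 difference depends on the pseudocount for genes at or near 0, from -9.48 at 0.001 to -3.09 at 1 for Alas2 and from -12.36 to -2.65 for Slc4a1, and these are no bounds. Depth is unknown, so low levels such as those of Gata1 and Klf1 have no counting error here.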

Other observations

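The red cell membrane genes below the minimum for the test were looked at after their values were seen. Of 11 such genes, Epb42, the protein 4.2 that binds band 3, had FPKM values of 0 and 0.0293 in the placodes and 0.492 and 0.537 in the SMGs. Kel, a blood group antigen, was at 0.0476 and 0 against 0.974 and 0.659, and Ermap, another membrane protein of erythroid cells, was at 0.105 and 0.0759 against 0.591 and 0.901. Rhag, the Rh-associated glycoprotein, was listed at 0 in both placode samples, against 0.167 and 0.328 FPKM in the SMGs. These 4 genes each had both placode values under both SMG values, and the groups did not overlap for 77.2% of all features above 0 in at least 1 sample. Sptb, β-spectrin, lay the other way, at 0.511 and 0.660 in the placodes against 0.323 and 0.421. Icam4 did not separate the groups, at 0 and 0.138 against 0.138 and 0.0307. None of the 11 genes reached 1 FPKM in any sample.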
